A study of Mus musculus with 22 samples.

Results

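Tumours of 15 mice that had received NHS-muIL12 were compared with tumours of 7 mice that had not, out of 22 profiled mice in all, and each mouse was placed by the title of its sample. NHS-muIL12 is murine interleukin-12 fused to an antibody that binds DNA and histones exposed in necrotic tissue. All mice were of strain BALB/c, carried EMT-6 mammary tumour cells placed orthotopically in the fat pad, and entered treatment at a volume of roughly 100 mm3. The 15 comprised 4 mice given 2 µg NHS-muIL12, 3 given 10 µg, 4 given 2 µg with avelumab and 4 given 10 µg with avelumab. The other 7 comprised 4 isotype control mice and 3 given avelumab alone. NHS-muIL12 went under the skin once, on day 0, and avelumab, an antibody that blocks PD-L1, intravenously at 200 µg on days 0, 3 and 6. Tissue was collected on day 6, so that the last avelumab dose carries the same day number as collection. The series text counts 4 mice in each of 6 groups, and mice beyond these 22 are not analysed here. NanoString probes, which count single RNA molecules with labelled oligonucleotides and no amplification, read 770 genes of total tumour RNA. The host is immunocompetent and keeps its own lymphocytes and myeloid cells.

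Interleukin-12 is made by dendritic cells and macrophages and acts on T cells and NK cells through a receptor of the chains encoded by Il12rb1 and Il12rb2, which signals through Jak2, Tyk2 and Stat4 and drives transcription of Ifng. Interferon-gamma then acts on tumour cells, macrophages and endothelium through its own receptor and factors such as Irf1. Its textbook targets are the genes of MHC class I and class II presentation, the CXCR3 chemokines, guanylate-binding GTPases, Fc gamma receptors and Cd274, which encodes PD-L1.

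Total signal per library was 319293 to 511105 with NHS-muIL12 and 300174 to 354956 without, and the 20 housekeeping genes averaged, on the log2 scale, 8.79 to 8.89 and 8.85 to 8.91. Libraries differed at their dim end, with a lower quartile of 6.17 to 51.5 with NHS-muIL12 and 3.36 to 43.0 without. The 4 highest lower quartiles belonged to isotype control replicates 1 and 2, NHS-muIL12 2 µg replicate 3 and NHS-muIL12 10 µg replicate 3, and the main counts are also given without these 4. The tumour genes Epcam, with a median of 50.4 with and 44.5 without NHS-muIL12, and Msln, which encodes mesothelin, were above 0 in all 22 libraries, as was Ptprc, the pan-leukocyte CD45 gene. In RNA from whole tumours, more cells of a type and more RNA per cell cannot be told apart.

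NHS-muIL12 against none. The question was what NHS-muIL12 did to tumour gene expression whatever its dose and whether or not avelumab was given with it. Genes of class II antigen presentation, Fc gamma receptors, the interferon-gamma response and the SLAM receptor family, and some macrophage genes, were higher with NHS-muIL12. Mmp9, Itgb3 and the endothelial genes Dll4 and Cdh5 were lower. With avelumab as a covariate, 155 of 750 tested genes (20.7%) passed an adjusted p of 0.05 in limma, 142 higher (18.9%) and 13 lower (1.73%). Before adjustment, 261 genes had p under 0.05. Without the 4 libraries of highest lower quartile 145 genes passed, 134 higher and 11 lower. Signal is on a linear scale throughout, and differences are of log2(signal + 1), which understates changes in dim genes. The share of calls that were higher rests on the scaling. It was 91.6% with the deposited values and 92.5% after centring on housekeeping genes, against 42.4% after centring each library on its median (92 higher and 125 lower) and 44.2% after quantile normalization (119 higher and 150 lower). These 2 scalings moved the median difference of all genes from 0.07 to -0.22 and -0.12. List counts below are to be read beside the counts over all 750 genes just given for the same scaling. Centring on housekeeping genes could change little, since their log2 mean was already 8.79 to 8.89 with and 8.85 to 8.91 without NHS-muIL12. Of these 20 genes, G6pdx differed by 0.46, Tubb5 by -0.25 and Eef1g by -0.23. Each had an adjusted p under 0.05 in limma with all 770 genes tested. Of the 142 genes called higher, 138 stayed above 0 after median centring and 137 after quantile normalization, with 92 and 110 still called, and all 13 lower genes stayed below 0 under both.

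Of the 750 genes, 18 (2.40%) had all 15 NHS-muIL12 mice above all 7 others, and 0 had all 15 below. Among them were Cd74, H2-Ab1, H2-Aa, H2-Eb1 and H2-Dma of class II presentation, the Fc receptors Fcgr4, Fcgr1 and Fcgr3, Emr1, Ly86, Cd180, Cd48, Selplg, Tnfrsf14, Gbp2b, Irf5 and Irf2. Emr1, now named Adgre1, encodes the macrophage antigen F4/80. Its signal was 333 to 776 (median 414) with NHS-muIL12 and 109 to 331 (median 189) without, a log2 difference of 1.07 ± 0.18 (SE). Ly86 encodes MD-1, the partner of the Toll-like receptor relative encoded by Cd180, and the pair rose by 1.32 ± 0.22 and 1.10 ± 0.19. Irf5 and Irf2 are interferon regulatory factors, and the rise was 0.95 ± 0.16 for Irf5 and 0.45 ± 0.10 for Irf2. That of Irf2 was no longer called after median centring or quantile normalization. Selplg, which encodes the selectin ligand PSGL-1, rose by 0.96 ± 0.17. Brighter genes were called more often. Among genes with a mean signal over 200, 34.8% were called (82 higher and 7 lower of 256), and among those under 20, 2.09% (3 higher and 1 lower of 191).

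**Figure D1:**
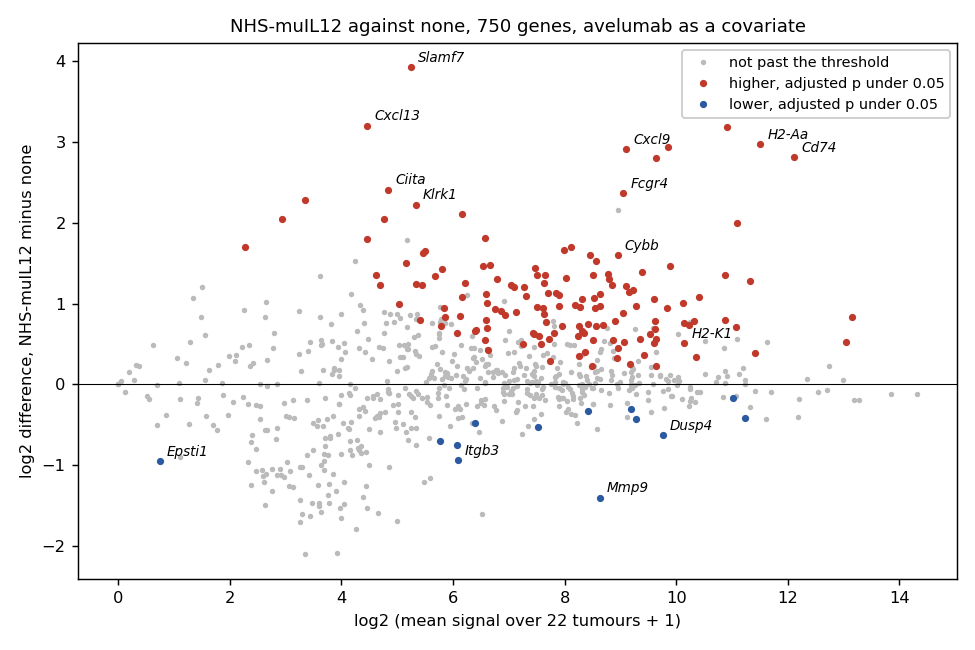
Log2 difference between NHS-muIL12 and none (vertical axis) against log2 of the mean signal plus 1 over 22 tumours (horizontal axis) for 750 genes, each a point, red where higher and blue where lower at an adjusted p under 0.05. The 142 higher genes reach a log2 difference of 3.93 for Slamf7, and the 13 lower genes reach -1.41 for Mmp9.

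MHC class II presentation. Class II molecules show peptides to CD4 T cells. The alpha and beta chains, the invariant chain, a peptide-exchange chain and the transactivator Ciita rose together, 7 of 10 measured genes of the list, with a list median of 2.61 beside 0.07 over all 750 genes. Cd74, the invariant chain, was at 1626 to 17463 (median 5204) with NHS-muIL12 and 409 to 1244 (median 603) without. The log2 rise was 2.81 ± 0.38 (SE), or 7.03-fold, with adjusted p = 2.09e-04, and the lowest of the 15 stood above the highest of the 7. By group its signal was 409 to 1244 in isotype control, 548 to 1084 in avelumab alone, 1626 to 4138 and 7097 to 9812 with 2 and 10 µg NHS-muIL12, and 3019 to 8311 and 2861 to 17463 with avelumab added to those doses. H2-Aa, an alpha chain, was at 976 to 12583 (median 3263) against 156 to 738 (median 370.1), a rise of 2.98 ± 0.44. The beta chains H2-Ab1 and H2-Eb1 rose by 2.80 ± 0.41 and 2.95 ± 0.45, also with no overlap. H2-Ea-ps, the alpha chain that pairs with the H2-Eb1 product, rose by 3.19 ± 0.50, with 14 of the 15 mice above the highest of the 7. H2-Dma, a chain of the molecule that exchanges peptides on class II, rose by 1.70 ± 0.25 to 166 to 720.4 (median 279) from 55.1 to 159 (median 107). Ciita, the class II transactivator, was dim, at 11.2 to 113 (median 24.6) against 0 to 24.4 (median 6.90), and rose by 2.41 ± 0.62 (adjusted p = 0.00742), with overlapping groups. Not past the threshold were H2-DMb2 (0.80 ± 0.36), H2-DMb1 (1.07 ± 0.46, at or under 5.72 in every mouse) and H2-Ob (-0.41 ± 0.52), of which H2-Ob encodes a chain that restrains peptide exchange.

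Promoters of 4 of the genes that rose are shown because class II and interferon-induced genes are known for short shared elements close to the start site. They are RefSeq windows of GRCm38.p6, the C57BL/6J genome and not that of the BALB/c host, and each runs from 250 bases before to 50 bases after the start, 5′ to 3′ on the strand of the gene. Capitals mark CTGATTGG (the Y box of class II promoters) in H2-Aa and H2-Eb1 and the interferon-stimulated response element (GAAA, any 2 bases, GAAA) in Fcgr4 and, on the opposite strand, in Gbp2b. Both motifs and TTCNNNGAA (the gamma-activated site) were searched on both strands, with no overlap between matches in these 4 windows. H2-Aa lies at chr17:34287774-34288073 on the minus strand, H2-Eb1 at chr17:34305617-34305916 on the plus strand, Fcgr4 at chr1:171018676-171018975 and Gbp2b at chr3:142594597-142594896, both on the plus strand.
H2-Aa: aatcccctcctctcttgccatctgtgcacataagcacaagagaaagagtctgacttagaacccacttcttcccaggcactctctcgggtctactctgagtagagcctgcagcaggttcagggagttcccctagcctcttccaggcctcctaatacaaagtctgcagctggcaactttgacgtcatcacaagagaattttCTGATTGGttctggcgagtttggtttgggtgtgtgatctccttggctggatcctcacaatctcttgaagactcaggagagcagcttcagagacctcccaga
H2-Eb1: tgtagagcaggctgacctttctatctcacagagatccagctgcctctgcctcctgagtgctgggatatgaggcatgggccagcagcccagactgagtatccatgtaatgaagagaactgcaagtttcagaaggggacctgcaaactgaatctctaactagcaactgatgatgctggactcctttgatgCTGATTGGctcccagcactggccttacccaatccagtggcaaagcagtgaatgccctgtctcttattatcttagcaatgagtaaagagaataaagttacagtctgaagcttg
Fcgr4: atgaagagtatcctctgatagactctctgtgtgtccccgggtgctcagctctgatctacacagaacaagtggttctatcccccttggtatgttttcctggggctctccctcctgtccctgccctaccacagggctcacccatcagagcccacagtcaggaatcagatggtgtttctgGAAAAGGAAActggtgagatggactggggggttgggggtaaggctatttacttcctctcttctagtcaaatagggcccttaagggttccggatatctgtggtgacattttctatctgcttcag
Gbp2b: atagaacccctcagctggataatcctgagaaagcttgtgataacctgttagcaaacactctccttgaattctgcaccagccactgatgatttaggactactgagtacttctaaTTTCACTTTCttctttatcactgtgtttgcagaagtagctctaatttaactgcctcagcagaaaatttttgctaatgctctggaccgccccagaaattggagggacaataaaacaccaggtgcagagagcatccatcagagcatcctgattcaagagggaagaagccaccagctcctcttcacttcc
The Y box began 51 bases before the start in H2-Aa and 62 in H2-Eb1, and the response element 73 bases before in Fcgr4 and 137 in Gbp2b. CTGATTGG was in a window of 4.70% of 27025 genes, 6.13% of the 555 tested genes with a window and 14.2% of the 106 higher genes with one, among them Cxcl9 and Slamf6. The response element was in 3.99%, 9.19% and 15.1% of the same sets, and TTCNNNGAA in 9.55%, 14.1% and 16.0%. Each window shown holds a match, while those of other genes that rose, such as H2-Dma, Slamf7 and Cxcl13, hold none of these motifs. A match describes letters in the window only.

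**Figure D2:**
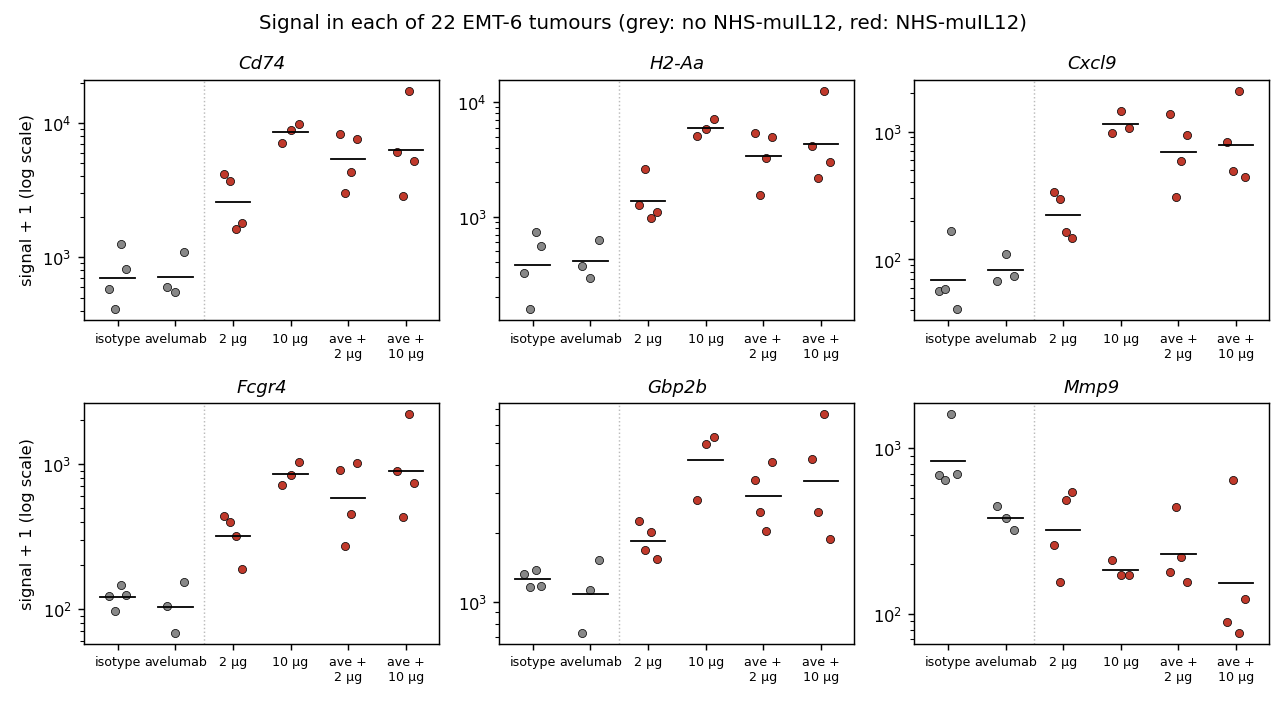
Signal plus 1 on a log axis for 6 genes in each of 22 tumours (points) by group, grey without and red with NHS-muIL12, with the mean of log2(signal + 1) per group as a bar; "ave" is avelumab. Every red point lies above every grey one for Cd74, H2-Aa, Fcgr4 and Gbp2b, while Cxcl9 and Mmp9 overlap between the groups.

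The interleukin-12 axis. Of 17 genes of the receptor, its kinases and factors, the host's own cytokine chains and the related interleukin-18 pathway, 2 rose and 0 fell, a share near that of all genes called higher (18.9%). Only 8 of the 17 had a mean signal of at least 20, and dimmer genes were rarely called, so the count says little about the axis. Il12rb1, the receptor chain shared with interleukin-23, was at 40.3 to 142 (median 78.1) against 20.7 to 78.4 (median 39.9), a rise of 0.84 ± 0.27 (adjusted p = 0.0317). Il18, a cytokine that acts with interleukin-12 on NK and T cells, was at 123 to 239.8 (median 162) against 103 to 139.6 (median 112), a rise of 0.50 ± 0.12 (adjusted p = 0.00544). Both calls were lost after centring on the library median, which left 0 of the 17 called. That of Il12rb1 held in 18 of 22 fits with 1 mouse left out, and that of Il18 was also lost after quantile normalization (adjusted p = 0.117). Il12rb2, the signalling chain, was listed at 0 in all 7 mice without NHS-muIL12 and ran from 0 to 13.8 in the 15, of which 5 were at 0 (adjusted p = 0.0759, not past the threshold, and 0.0419 after quantile normalization). Ifng itself was dim and overlapped, at 0 to 60.5 (median 3.75) with and 0 to 34.2 (median 10.9) without, a log2 difference of -0.17 ± 0.90 with a 95% interval of -2.05 to 1.70. Tbx21, the factor T-bet, differed by -0.33 ± 0.65, and Stat4 by 0.31 ± 0.61, neither past the threshold. Jak2, a bright gene at 553 to 764 (median 631) and 499 to 716 (median 616), differed by 0.02 ± 0.07, and only under quantile normalization was it called, lower by 0.33. Of the host's cytokine chains, Il12a differed by -0.43 ± 0.57 and Il12b by 0.66 ± 0.61, and Il27 was listed at 0 in all 22 mice.

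**Figure D3:**
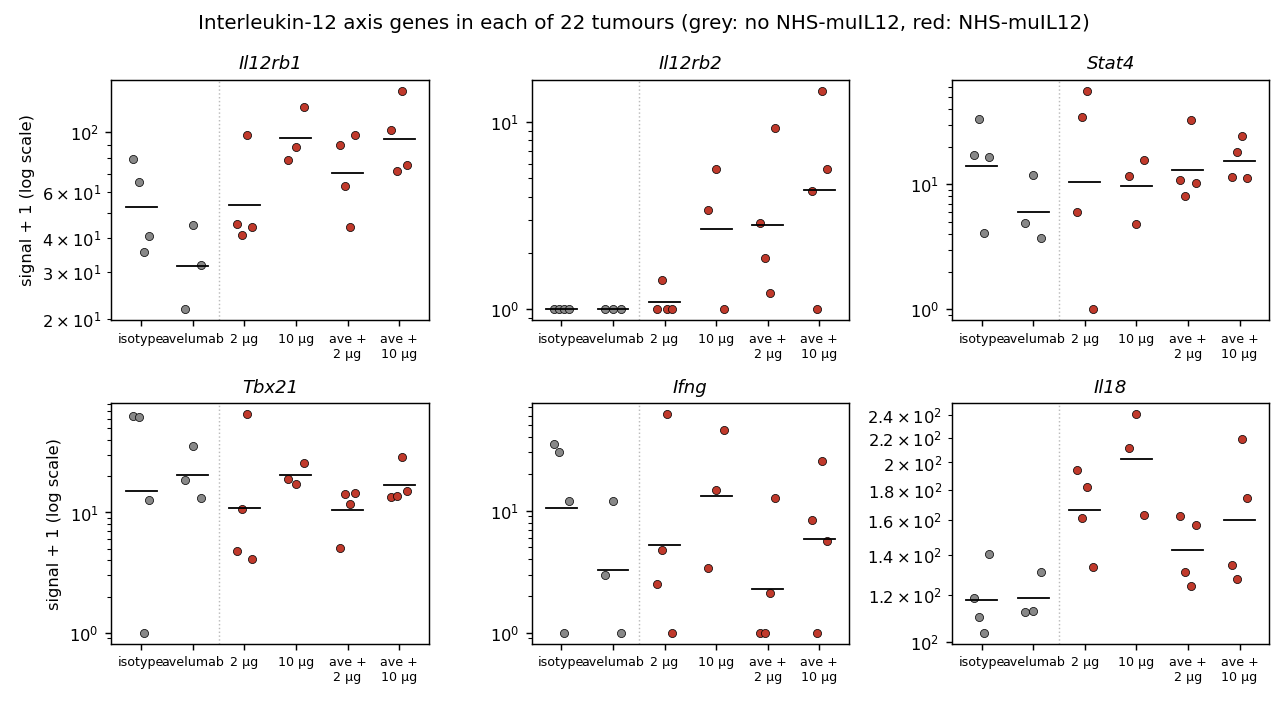
Signal plus 1 on a log axis for 6 genes of the interleukin-12 axis in each of 22 tumours (points) by group, grey without and red with NHS-muIL12, with the mean of log2(signal + 1) per group as a bar. Il12rb1 and Il18 lie higher in red groups with overlap, Il12rb2 is at 0 in all grey groups, and Stat4, Tbx21 and Ifng overlap throughout.

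Interferon-gamma signalling and its targets. Of the signalling list 6 of 11 genes rose. Irf1, an interferon regulatory factor, was at 882 to 2584 (median 1262) against 706 to 916 (median 783), a rise of 0.74 ± 0.18 (adjusted p = 0.00644). In the same list, Irf8 rose by 0.95 ± 0.20, Stat2 by 0.78 ± 0.21 and Socs1, the feedback inhibitor, by 0.89 ± 0.26. Ifngr1 (0.32 ± 0.12) and Jak1 (0.12 ± 0.07) were not past the threshold. The list's median was 0.45 as deposited and 0.15 after median centring, where 3 of 11 were higher and 1 lower.

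Chemokines that recruit CXCR3-bearing T and NK cells rose, 3 of 4 genes. Cxcl9 was at 147 to 2086 (median 591) against 39.9 to 165 (median 67.1), a rise of 2.91 ± 0.45, or 7.54-fold (adjusted p = 2.17e-04), and 13 of the 15 mice were above all 7. Cxcl10 rose by 1.31 ± 0.30 and Cxcl11 by 1.31 ± 0.29, while their receptor Cxcr3 differed by 0.41 ± 0.40 and was not called. Interferon-induced GTPases rose as well. Gbp2b was at 1536 to 6662 (median 2486) against 727 to 1526 (median 1172), with no overlap, a rise of 1.29 ± 0.27, and Gbp5 and Irgm2 rose by 1.60 ± 0.39 and 1.13 ± 0.30. The enzymes Ido1 (-0.31 ± 0.71) and Nos2 (0.64 ± 0.35), which break down tryptophan and make nitric oxide, were not past the threshold.

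In MHC class I and its supply of peptides, list medians were 0.17 and 0.39 beside 2.61 for class II. Of the class I list 4 of 10 genes rose, the heavy chains H2-K1 (0.51 ± 0.12) and H2-D1 (0.52 ± 0.11), the nonclassical H2-T23 (0.71 ± 0.20) and the lipid-presenting Cd1d1 (1.11 ± 0.30). The other 6 did not pass, among them the nonclassical H2-Q1 (-1.33 ± 1.04) and H2-Q10 (-0.83 ± 0.45). Their differences were below 0 in all settings tried, but those settings refit the same mice and add no separate evidence of a fall. After median centring 1 of 10 was called and the list's median turned from 0.17 to -0.13. H2-K1 ran at 897 to 2131 (median 1215) against 699.7 to 1028 (median 786), with 11 of the 15 mice above all 7. Of the peptide-loading list 6 of 9 rose, led by the immunoproteasome subunit Psmb10 (0.74 ± 0.14), the peptide transporter Tap1 (0.69 ± 0.16) and Psmb9 (0.63 ± 0.15), and 2 of 9 were called after median centring. Among genes of the response to type I interferon, 10 of 24 rose, with a median of 0.43, and 4 of 24 after median centring. Its members with the largest rises were Ifi44l (1.25 ± 0.26), Zbp1, a sensor of nucleic acids (1.14 ± 0.25), and Ifi44 (0.95 ± 0.20). Of a list of type I interferon genes, their receptor chains and the type III interferon gene Ifnl2, 0 of 7 passed, with a median of -1.12. Ifna2 was called lower after median centring or quantile normalization. With the lower quartile as a covariate 4 were lower, Ifna1, Ifna2, Ifnb1 and Ifnl2.

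Fc receptors, macrophage genes and complement. Fc gamma receptors let macrophages and NK cells respond to antibody-coated targets. Of the list 6 of 7 genes rose, with a median of 0.97, and 4 of 7 after median centring and 5 after quantile normalization. Fcgr4 was at 188 to 2197 (median 715) against 67.5 to 152 (median 121), a rise of 2.37 ± 0.36, or 5.17-fold (adjusted p = 2.10e-04), with no overlap. Fcgr1, the high-affinity receptor, was at 359 to 1213 (median 556) against 117 to 338 (median 198) (rise 1.37 ± 0.23), and Fcgr3 rose by 0.99 ± 0.19, both also with no overlap. The inhibitory Fcgr2b rose by 0.80 ± 0.20, the shared signalling chain Fcer1g by 0.97 ± 0.22 and the kinase Syk by 0.35 ± 0.11, whereas Fcer1a, the IgE receptor chain of mast cells, differed by -0.54 ± 0.46 and was not called.

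Of the macrophage list 9 of 18 rose, with a median of 0.55, beside 18.9% of all genes. The count was 6 without the 4 libraries of highest lower quartile, 4 after quantile normalization and 3 after median centring. Those after quantile normalization and median centring are not far above the share of all genes under the same scaling. The summed signal of the 18 macrophage genes was 10268 to 21368 with NHS-muIL12 and 5728 to 11642 without. Cybb, the catalytic subunit of the phagocyte NADPH oxidase, was at 359.7 to 1488 (median 562) against 123 to 364 (median 187), a rise of 1.60 ± 0.23 (adjusted p = 2.09e-04), with 14 of the 15 mice above all 7. Cd36, a scavenger receptor, rose by 1.35 ± 0.32, Ccr2, the receptor of inflammatory monocytes, by 1.22 ± 0.27, Msr1 by 0.78 ± 0.18 and Cd68 by 0.51 ± 0.17. Csf1r (0.53 ± 0.20), Mrc1 (0.69 ± 0.37) and Cd163 (0.14 ± 0.47) were not past the threshold. Arg1, which encodes arginase, stood at 638 to 3466 (median 1416) against 518 to 1026 (median 704), a difference of 0.77 ± 0.28 (adjusted p = 0.0554), not called.

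Of the complement list 11 of 28 rose, among them the opsonin chains C1qa (1.00 ± 0.21) and C1qb (1.08 ± 0.21), the alternative-pathway protease Cfb (1.66 ± 0.34), C4b (1.40 ± 0.36) and C3 (1.05 ± 0.31). The share differed with scaling, 7 higher and 1 lower of 28 after median centring and 9 higher and 4 lower after quantile normalization. C6, of the membrane attack complex, rose by 2.11 ± 0.69 from 0.870 to 70.9 (median 14.8) to 10.3 to 418 (median 50.8), a call that held in 17 of 22 fits with 1 mouse left out. Of lysosomal genes 4 of 9 rose, with the class II-processing protease Ctss at 1.36 ± 0.24 and Ctsh at 0.94 ± 0.22. After median centring 2 of 9 were higher, and after quantile normalization 3 were higher and 1, Ctsl, was lower. Of innate sensors 7 of 22 rose, with Toll-like receptors Tlr8 (1.23 ± 0.24), Tlr1 (0.95 ± 0.26) and Tlr4 (0.62 ± 0.17). After median centring 5 of these were higher and 1 sensor was lower.

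Recruitment, lymphocytes and costimulation. Of the lymphocyte chemokine list 4 of 15 genes rose and of the myeloid chemokine list 3 of 18, the second near the share of all genes (18.9%). Ccl5, which attracts T cells, rose by 1.46 ± 0.39 (adjusted p = 0.0104). The B cell attractant Cxcl13 was at 0 to 70.1 (median 23.7) against 0 to 15.1 (median 0), with 5 of 7 and 1 of 15 mice at 0, a difference of 3.21 ± 0.86 (adjusted p = 0.0107). The monocyte attractant Ccl8 rose by 2.00 ± 0.49. After median centring or quantile normalization 2 of 18 myeloid chemokine genes were higher and 3 lower, the neutrophil attractants Cxcl1 and Cxcl2 and the eosinophil receptor Ccr3. Both counts are near the shares of all genes called higher and lower under these scalings.

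SLAM receptors tune activation of lymphocytes and myeloid cells, and 6 of 9 of their genes rose, 4 of 9 after median centring or quantile normalization. Slamf7 had the largest difference of all 750 genes, 3.93 ± 0.78 (adjusted p = 0.00128), at 0 to 193 (median 31.5) against 0 to 9.13 (median 0), with 4 of the 7 and 1 of the 15 mice at 0. With a pseudocount of 10 its difference was 1.96. Slamf6 (2.29 ± 0.53), Cd48 (1.81 ± 0.32) and Ly9 (1.51 ± 0.28) rose, and Cd48 did not overlap between the groups. Sh2d1a, the SLAM adaptor of T and NK cells, rose by 1.70 ± 0.60, and that call held in 5 of 22 such fits.

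Markers of T and NK cells were called at a share near that of all genes (18.9% higher). Only 6 of 16 T cell, 5 of 18 NK cell and 2 of 13 B cell genes had a mean signal of at least 20. Dimmer genes were rarely called, so the counts of these lists say little about lymphocytes. Of the T cell list 3 of 16 rose, namely Txk (2.04 ± 0.58), Cd3g (1.23 ± 0.41) and Lck (0.72 ± 0.18). Its summed signal was 109 to 701 with NHS-muIL12 and 117 to 651 without, and Cd3e (0.89 ± 0.49), Cd3d (0.10 ± 0.31), Cd8a (1.34 ± 0.83) and Cd4 (0.87 ± 0.88) were not past the threshold. Cd8a was at 0 in 1 of the 15 and 3 of the 7 mice. Of the NK cell list 3 of 18 rose, with Klrk1, the receptor NKG2D, at 2.22 ± 0.46, Klra2 at 1.44 ± 0.24 and Klrd1 at 1.35 ± 0.38. Ncr1, which marks NK cells, was not past the threshold (0.64 ± 0.28). Of cytotoxic effector genes 1 of 9 rose, the death ligand Tnfsf10 (0.83 ± 0.26), while Gzma (0.77 ± 0.34), Gzmb (0.46 ± 0.63) and Prf1 (0.48 ± 0.46) did not pass. Of the B cell list 0 of 13 passed. Its summed signal was 33.8 to 553 with NHS-muIL12 and 22.7 to 389.5 without. The part of changes in cell content in these results was not tested.

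Among checkpoint genes 2 of 13 rose, where 18.9% of all tested genes did. Cd274, which encodes PD-L1, was at 159 to 1876 (median 412) against 117 to 364 (median 206), a rise of 1.22 ± 0.37 (adjusted p = 0.0229), and 10 of the 15 mice were above all 7. Tnfrsf14, the receptor HVEM, was at 110.0 to 370.2 (median 160.3) against 60.6 to 108 (median 79.6), a rise of 1.09 ± 0.22 with no overlap. Pdcd1, which encodes PD-1, differed by -0.36 ± 0.81 and Ctla4 by -0.59 ± 0.49, neither called. Cd86, a costimulatory ligand of antigen-presenting cells, was the 1 gene of 14 in the costimulation list that rose (0.91 ± 0.17). The dendritic cell list had 3 of 13 higher, Clec7a (1.13 ± 0.22), Cd86 and Cd83 (0.42 ± 0.15), and 2 of 13 after median centring or quantile normalization. The checkpoint and dendritic cell shares were near that of all genes, and the costimulation share was below it.

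**Figure D4:**
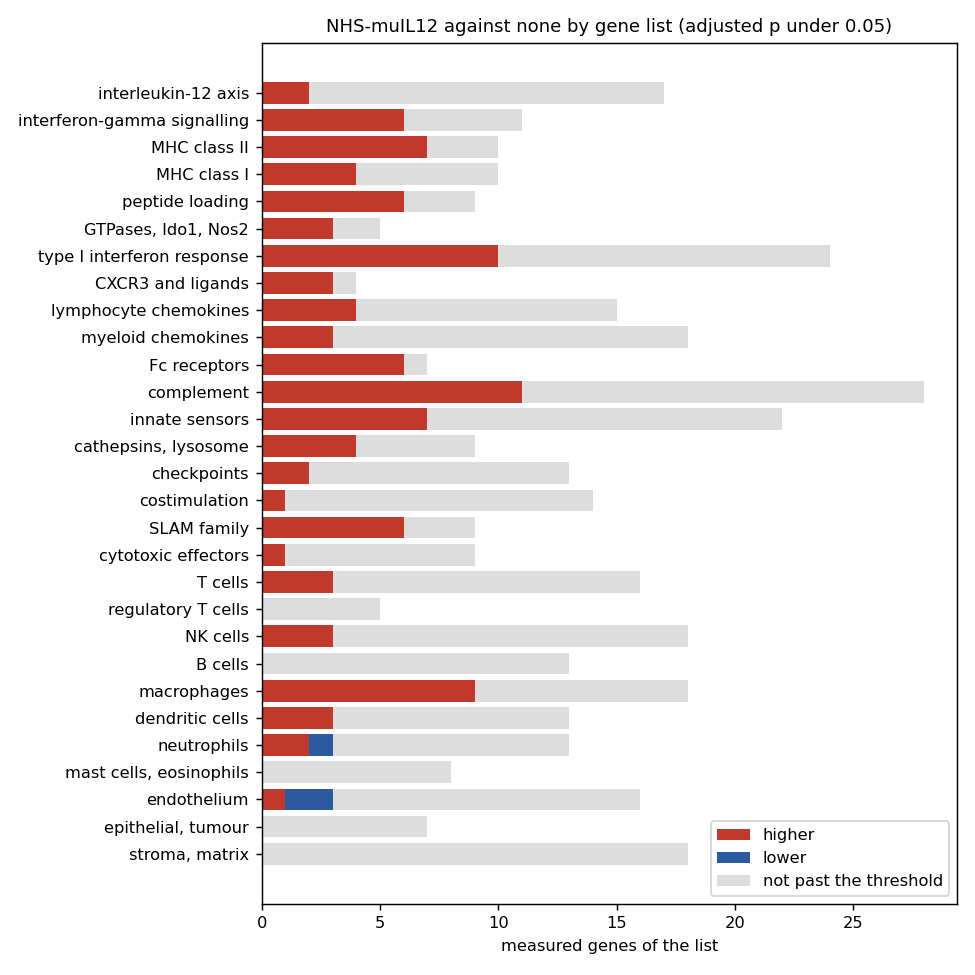
Number of measured genes (horizontal axis) of 29 gene lists (rows) that were higher (red), lower (blue) or not past the threshold (grey) in NHS-muIL12 mice against none, at an adjusted p under 0.05. MHC class II (7 of 10) and Fc receptors (6 of 7) hold the largest red shares among lists of 6 or more genes, and regulatory T cells, B cells, mast cells, epithelial genes and stroma hold none.

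Genes that fell. Mmp9, a gelatinase that neutrophils and macrophages secrete, was at 75.4 to 644 (median 178) with NHS-muIL12 and 321 to 1605 (median 640.5) without, a log2 difference of -1.41 ± 0.37 (adjusted p = 0.00988). Its groups overlapped, with 640.5 to 1605 in isotype control, 321 to 444 in avelumab alone, 153 to 546 and 169 to 211 at 2 and 10 µg, and 154 to 439 and 75.4 to 644 with avelumab added. Of the neutrophil list Mmp9 alone of 13 fell, 2 rose, Fpr2, a formyl peptide receptor (1.35 ± 0.33), and Itgam (0.60 ± 0.17), and the neutrophil gene Csf3r differed by 0.11 ± 0.36, not called. The integrin subunit Itgb3 was at 18.4 to 95.2 (median 48.0) against 49.1 to 175 (median 70.1), a log2 difference of -0.94 ± 0.24, and Dusp4, a phosphatase of MAP kinases, at 474 to 1149.8 (median 726) against 678 to 1666 (median 1166), a log2 difference of -0.63 ± 0.17. These 3 falls, of Mmp9, Itgb3 and Dusp4, were called in each of the 22 fits with 1 mouse left out, and in the fit without the 4 libraries of highest lower quartile.

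Endothelial genes that fell were 2 of 16, Dll4, the Notch ligand of sprouting vessels (-0.71 ± 0.21), and Cdh5, VE-cadherin (-0.53 ± 0.16), while Vcam1, an adhesion molecule of inflamed endothelium, was higher by 0.23 ± 0.08 as deposited and below 0 after median centring (-0.07) and quantile normalization (-0.11). With median centring 7 of 16 genes of the endothelial list were lower and with quantile normalization 6. Both counts include the growth factor genes Vegfa and Vegfc. As deposited 1.73% of all genes were lower, and under both of these scalings far more were, with the counts given above. The share of the endothelial list that was lower was above that of all genes under each of these scalings. Other falls were in F2rl1, a protease-activated receptor (-0.75 ± 0.26), the transcription factor Snai1 (-0.48 ± 0.16), the growth factor Pdgfc (-0.43 ± 0.14) and the tumour antigen Msln (-0.41 ± 0.14), and in Igf1r (-0.34 ± 0.10), Itga5 (-0.31 ± 0.10) and Anp32b (-0.18 ± 0.06). Those of F2rl1, Snai1, Pdgfc, Msln, Igf1r and Anp32b were not called without the 4 libraries of highest lower quartile, as Epsti1 was not. With 1 mouse left out, the call held in 6 of 22 fits for Snai1, 7 for F2rl1, 9 for Msln and 15 for Pdgfc and for Epsti1. Epsti1 was at 0 to 0.524 (median 0) against 0 to 7.95 (median 0.344), near the floor of the scale, and isotype control replicates 1 and 2 were its highest. Mast cell and eosinophil genes had a median of -0.75 with 0 of 8 called, and the median over genes with a mean signal under 20 was -0.31. Of the epithelial list 0 of 7 and of the stroma list 0 of 18 fell, against 3 and 6 after median centring. Lower calls were also more frequent over all genes under that scaling.

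NHS-muIL12 in each avelumab state. The pooled comparison was divided to see whether the difference was present with and without avelumab, with different mice on both sides. Without avelumab (7 mice against 4) 17 of 750 genes (2.27%) passed in limma, all higher, with 121 at an unadjusted p under 0.05. With avelumab (8 against 3) 111 (14.8%) passed, 107 higher (14.3%) and 4 lower (0.533%), with 229 at an unadjusted p under 0.05. Both lists held 14 genes, 82.4% of the first and 12.6% of the second, namely 6 of class II presentation, Fcgr1, Fcgr4, Cxcl9, Cybb, Ly86, Cd86, Klra2 and the integrin gene Itgal. The other 3 of the 17 were Klrk1, Il10ra and Pou2f2. The difference in Cd74 was 2.62 ± 0.53 without and 3.03 ± 0.57 with avelumab, that in H2-Aa 2.76 ± 0.61 and 3.23 ± 0.66, and that in Fcgr4 2.00 ± 0.48 and 2.80 ± 0.52. Slamf7 was at 2.77 ± 1.01 and 5.29 ± 1.09, and C6 at 0.65 ± 0.82 and 3.81 ± 0.89 without and with avelumab. Both genes passed the threshold with avelumab and not without, and the interaction was 2.52 ± 1.49 for Slamf7 and 3.16 ± 1.21 for C6, neither called. Lower with avelumab were Tpsab1, a mast cell tryptase (-1.86 ± 0.56), the integrins Itga6 (-0.61 ± 0.17) and Itga5 (-0.46 ± 0.14), and Myc (-0.44 ± 0.12).

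The test of the difference between the avelumab states called 0 of 750 genes in limma (0%), with 23 at an unadjusted p under 0.05. Its smallest unadjusted p belonged to Dpp4, an interaction of 2.16 ± 0.69, and Myc, -0.50 ± 0.17 (both adjusted p = 0.987). The interaction in Cd74 was 0.41 with a 95% interval of -1.23 to 2.04. The unequal counts of 17 and 111 are therefore not shown to be a difference between the states. They rested on single mice. The first was 0 without the 4 libraries of highest lower quartile, where the second was 125. All 4 were mice without avelumab, among them isotype control replicates 1 and 2, so the comparison with avelumab lost no mouse. The first count was also 0 without isotype control replicate 1 and 1 without isotype control replicate 2 or any 1 of the 3 mice given 10 µg alone. It was 10 without isotype control replicate 3 or NHS-muIL12 2 µg replicate 2, and 29 and 33 without isotype control replicate 4 and avelumab plus NHS-muIL12 10 µg replicate 3. The second was 30 and 10 without avelumab replicates 2 and 3.

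**Figure D5:**
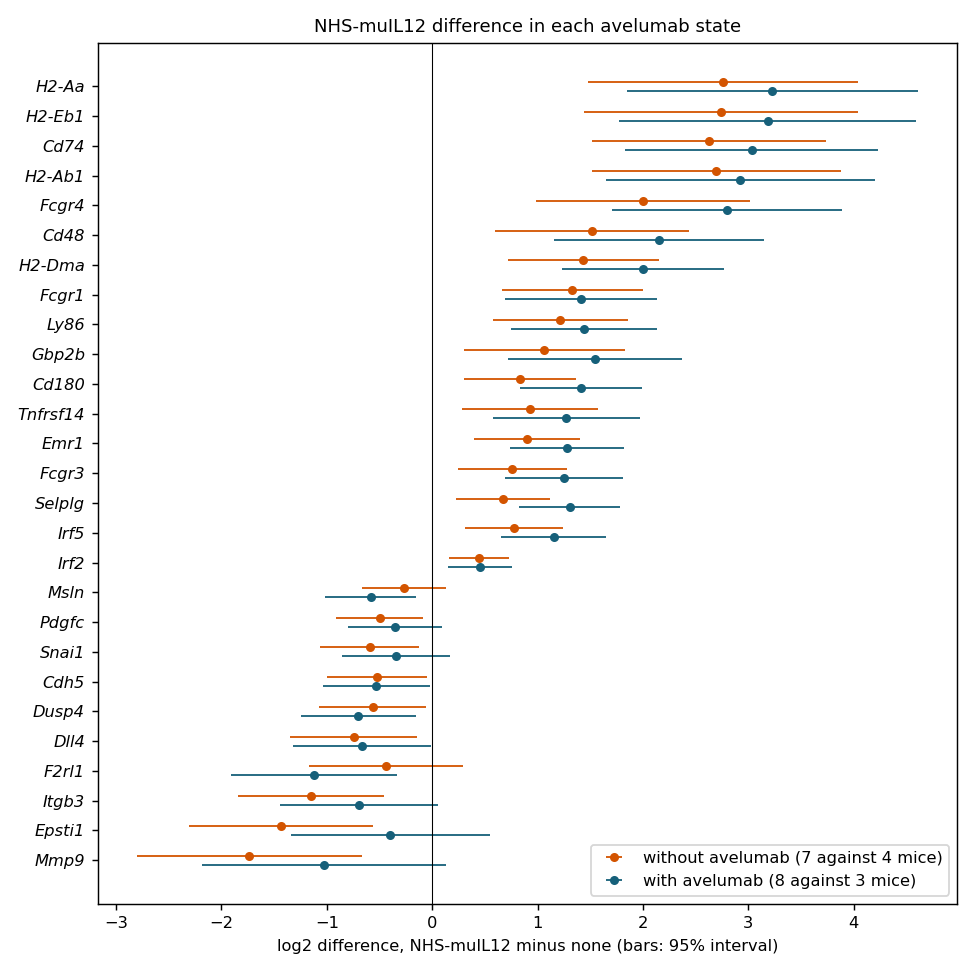
Log2 difference between NHS-muIL12 and none (horizontal axis, points with 95% intervals) in mice without avelumab (orange) and with avelumab (blue) for genes with no overlap between the pooled groups and the 10 largest falls. The higher genes lie from 0.44 to 3.23, and their place right of 0 in both states follows from how they were chosen. The intervals of both states overlap for each gene shown.

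Dose within the NHS-muIL12 mice. The 15 mice pool 2 doses, and 10 µg (7 mice) was compared with 2 µg (8 mice) with avelumab as a covariate. No gene passed (0 of 750 in limma, 0%), and 115 had p under 0.05 before adjustment. Arg1 and Lgals3, the galectin-3 gene, came nearest, each with an adjusted p of 0.0597. Arg1 was 638 to 1049.8 and 1441 to 1716 at 2 and 10 µg alone and 879 to 1416 and 1527 to 3466 with avelumab, a log2 difference of 1.06 ± 0.21. Lgals3 differed by 0.53 ± 0.11. Cd74 differed by 0.93 ± 0.39 and Cxcl9 by 1.19 ± 0.45, with 95% intervals of 0.12 to 1.74 and 0.26 to 2.13. Fits with 1 mouse left out called 0 to 2 genes.

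Variation among the NHS-muIL12 mice. The 15 differed among themselves. Avelumab plus NHS-muIL12 10 µg replicate 3 had the highest signal of the 15 for 124 of the 142 higher genes. Its total signal, 511105, and its median signal, 130.8, were the highest of all libraries, and its housekeeping mean was 8.83. Such counts per mouse were made over the 142 genes only, not over all tested genes. NHS-muIL12 2 µg replicates 3 and 4 had the lowest signal for 36 and 49 of the 142. The summed signal of the 10 class II genes was 4063 and 4503 in those 2 mice, 9225 and 9421 in the other mice at 2 µg alone, 18818 to 26618 at 10 µg alone, 6655 to 21500.0 in avelumab plus 2 µg and 7797 to 46272 in avelumab plus 10 µg. It was 1028 to 2971 in the 7 mice without NHS-muIL12. The lowest NHS-muIL12 mouse therefore stood above the highest of the others, and the 15 spanned a wider range than the 7. Over the 142 genes the median SD of log2(signal + 1) was 0.48 within the 15 and 0.47 within the 7, and 79 had the larger SD within the 15. Without avelumab plus NHS-muIL12 10 µg replicate 3, 147 genes passed in place of 155, 136 higher and 11 lower.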

How the data were processed

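RNA of 770 genes was read with NanoString probes in 22 tumours. The authors' deposited table holds NanoString signal per gene on a linear scale, and the labels' protocols name a standard NanoString labelling. Values stop at 0 and are equally spaced within a library (to within 0.000006 of a step), with a step of 0.664 to 1.68 signal units, and were read as background-subtracted, scaled counts. Totals then correspond to 197653 to 572089 counts above background per library. Which software, background and scaling were used is not given in these sources, so no count model was fitted, and precision comes from the spread between mice alone.

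Of 770 genes, 20 housekeeping genes were set aside and 750 tested as log2(signal + 1) with limma 3.58.1 in R 4.3.3 (lmFit, eBayes, two-sided, Benjamini-Hochberg over all 750, threshold 0.05), with NHS-muIL12 and avelumab as terms. Models with 4 means or with 3 dose levels gave the other comparisons. The fit was tested on simulated data. Gene names matched RefSeq symbols for 756 genes and synonyms for 8. Named genes are the 15 largest rises, 10 largest falls, 10 smallest p, genes with no overlap, the interleukin-12 axis and up to 4 genes of each list, and other comparisons contribute their 5 largest rises and falls or 2 smallest p. Other genes of a list given here were chosen after their values were seen. The members and lists were chosen with earlier results of these data known. Same-numbered mice of different groups did not deviate together (median r across genes 0.00652 over 50 pairs), and the labels do not pair them, so no pairing was used. The labels do not say whether mice shared a litter or a run. Some results are not reported here. Of 39 leading genes, 26 had a RefSeq promoter window. Alternatives covered the model, scaling, pseudocount, filter, weights and leaving out libraries.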

Additional observations from a re-analysis of the deposited data

Results flagged for a closer look

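Of 195 checks of the 39 leading genes in groups of 4 and in the 7 mice without NHS-muIL12, 8 found 1 mouse far from the rest of its group, by Dixon's test on the log2 scale, and chance gives about 1 in 20. Slamf7 in avelumab plus NHS-muIL12 2 µg replicate 2 read 12.3, and the rest of its group 78.4 to 80.7. In isotype control, Cxcl13 was at 15.1 and Slamf6 at 3.50 in replicate 2 and at 0 in the other mice, Mmp9 was at 1605 in replicate 3 against 640 to 699, and Itgb3 was at 49.1 in replicate 4 against 151 to 175. For Cxcl13 and Slamf6 the rest were tied at 0, where any reading above 0 is flagged and the rate of 1 in 20 does not hold. Isotype control replicate 2 was also among the 4 libraries of highest lower quartile. In avelumab plus NHS-muIL12 10 µg, Itgb3 was at 18.4 in replicate 1 against 46.1 to 52.2, and Tnfrsf14 at 370.2 in replicate 3 against 140.3 to 160.3. Among the 7 mice without NHS-muIL12, Gbp2b was at 727 in avelumab replicate 2 against 1124 to 1526. No gene passed the test of a difference between the avelumab states or between the doses.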

How the results depend on the processing

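For NHS-muIL12 against none, the count of 155 genes was 118 to 181 with 1 mouse left out, and 109 of the 155 were called in all 22 such fits, 106 higher and 3 lower. It was 269 after quantile normalization, 230 with the lower quartile as a covariate (164 higher and 66 lower), and 140 to 217 under the other alternatives (8 to 125 lower). In all, 78 genes kept their call and direction under all 35 alternatives. The replicate block, with the replicate number as a term, gave 140 genes, 136 of them among the 155, with 8 lower in place of 13. Without avelumab, the count of 17 was 0 to 33 with 1 mouse left out, 26 with 1 mean per group, 30 with genes of mean signal under 20 removed, 43 after quantile normalization, 148 with array weights, 28 with a trended robust prior and 0 without the 4 libraries of highest lower quartile (61 at an unadjusted p under 0.05 in limma). With avelumab, 111 became 10 to 132 with 1 mouse left out and 197 with array weights, and 125 without those 4 libraries, none of them from a mouse given avelumab. The interaction called 0 genes under its 34 alternatives, with 18 to 120 at an unadjusted p under 0.05 in limma over those that leave out no single mouse. For dose, 0 became 1 with the replicate block, 2 with a pseudocount of 10, 2 with genes of mean signal under 20 removed, 3 after quantile normalization, 20 with array weights, 2 with the trended robust prior, 4 with the lower quartile as a covariate and 0 to 2 with 1 mouse left out. Of 173 named genes, 57 of 86 called and 41 of 87 not called stayed on their side of the threshold throughout. Jak2 was the only named gene to change sign with a call in either fit, at -0.33 after quantile normalization. After median centring it was at -0.28, not called. Genes without a call also changed sign, such as Ifng, at 0.17 after quantile normalization. The causes were not tested. Precision was lower for dim genes, with a median SE of 0.68 under a mean signal of 20 and 0.13 over 200.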
